A study of Mus musculus with 6 samples.

Results

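The genes described here are 47 regulators and effectors of the cell cycle and mitosis, listed by name, with earlier results of these data known when the list was made. They are 47 of the 24165 named genes of a single-colour Agilent mouse array, and every non-control probe carrying the symbol of a member, in its older or newer spelling, was taken. By the phase in which each is known to act, 4 members belong to G1, 16 to the start and course of S phase and 27 to G2 and mitosis. RNA came from the whole pancreas of newborn C57BL/6N mice at postnatal day 0.5, frozen at harvest, with 2 arrays for each of 3 genotypes. Spink3-/- mice lack both alleles of Spink3, which encodes a trypsin inhibitor secreted by acinar cells, and the study's design text describes nonapoptotic death with autophagy in all their pancreatic acinar cells. Spink3-/-XKI/+ mice lack both Spink3 alleles as well and carry 1 XKI allele, a name the labels do not explain, and part of their acinar cells are described as normal. Spink3+/+ mice are the wild type. The labels do not say whether arrays of 1 genotype came from separate animals, so the p-values reflect variation among these arrays, and that variation may be technical.

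A dividing cell runs through G1, S phase, G2 and mitosis, and cyclins that bind cyclin-dependent kinases drive each step. D-type cyclins and E2F factors open the way to S phase, MCM helicases are loaded on replication origins and unwind the DNA, and cyclin B with Cdk1 starts mitosis. In the newborn pancreas acinar, endocrine and supporting cells all still divide, so transcripts of these genes come from several cell types. In RNA of a whole organ, fewer dividing cells and less RNA per dividing cell cannot be told apart.

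The promoters of members on both sides of the result are shown first, because mitotic and S-phase genes are known to be switched through different promoter elements. The cell cycle homology region, with the letters TTTGAA or the variant TTCGAA, is bound in G1 by the DREAM complex, CCAAT is the core of the NF-Y site, and TTTCCCGC and TTTGGCGC are 2 forms of the E2F site. RefSeq promoter windows (GRCm38.p6, 250 bases before to 50 bases after the start site) were found for 37 of the 47 members and searched on both strands. TTTGAA lay in the windows of 16 of 21 G2 and mitosis members, in 1 of 14 S-phase members and in 0 of 2 G1 members, against 20.2% of all 27025 genes with a window. CCAAT lay in 19 of 21 G2 and mitosis members and 9 of 14 S-phase members, against 41.1% of all genes with a window. TTTCCCGC or TTTGGCGC lay in 0 of 21 G2 and mitosis members and in 7 of 14 S-phase members, against 1.8% of all genes with a window. No overlap among the searched letters occurs in the stretches printed here, and a match describes letters and not a bound site. Within G2 and mitosis, TTTGAA did not mark the genes with low values in Spink3-/-XKI/+ pancreas. Nusap1, Birc5, Cenpe and Ccnb1 were low with neither TTTGAA nor TTCGAA in the window, and Bub1 held TTCGAA only. Cdk1, Plk1, Ube2c and Kif11 held TTTGAA, but their representative probes did not have both Spink3-/-XKI/+ arrays lowest. A link between letters and levels was not tested. Capitals mark the letters searched for, on either strand, and the 3 stretches for Cdc20, Prc1 and Top2a come from mitotic genes with low values in Spink3-/-XKI/+ pancreas.
Cdc20, chr4:118437344-118437443, minus strand: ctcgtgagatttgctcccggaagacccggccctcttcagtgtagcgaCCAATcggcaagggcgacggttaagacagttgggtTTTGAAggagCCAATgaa
Prc1, chr7:80294376-80294475, plus strand: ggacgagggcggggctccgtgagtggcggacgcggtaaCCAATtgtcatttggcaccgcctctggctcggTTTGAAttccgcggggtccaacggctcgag
Top2a, chr11:99024190-99024299, minus strand: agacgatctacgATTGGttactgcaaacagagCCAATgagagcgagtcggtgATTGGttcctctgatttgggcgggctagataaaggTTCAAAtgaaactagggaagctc
Ube2c and Cdk1 hold the same letters, and the probes of each gene disagreed among themselves.
Ube2c, chr2:164769829-164769928, plus strand: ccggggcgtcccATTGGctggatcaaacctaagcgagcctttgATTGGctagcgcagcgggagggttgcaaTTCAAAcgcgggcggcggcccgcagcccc
Cdk1, chr10:69352913-69353012, minus strand: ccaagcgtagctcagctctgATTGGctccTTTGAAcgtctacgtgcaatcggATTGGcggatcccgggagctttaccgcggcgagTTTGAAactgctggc
Ccnb1, also low in Spink3-/-XKI/+ pancreas, has a pair of CCAAT runs 32 bases apart and no TTTGAA in its window, the same spacing as a pair in Cdk1 and the pair in Aurka.
Ccnb1, chr13:100786487-100786596, minus strand: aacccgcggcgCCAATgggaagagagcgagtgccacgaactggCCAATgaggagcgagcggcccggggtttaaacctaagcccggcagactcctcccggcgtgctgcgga
Mcm5 and Mcm6 stand for the S-phase genes with E2F letters, and Rrm2 is the S-phase member that shared the low values and holds neither TTTGAA nor E2F letters in its window.
Mcm5, chr8:75109349-75109468, plus strand: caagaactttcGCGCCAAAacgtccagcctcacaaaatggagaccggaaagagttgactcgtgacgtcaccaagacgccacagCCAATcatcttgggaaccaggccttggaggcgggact
Mcm6, chr1:128359726-128359825, minus strand: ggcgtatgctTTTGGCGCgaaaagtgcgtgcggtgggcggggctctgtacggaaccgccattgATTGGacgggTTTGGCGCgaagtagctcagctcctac
Rrm2, chr12:24708154-24708253, plus strand: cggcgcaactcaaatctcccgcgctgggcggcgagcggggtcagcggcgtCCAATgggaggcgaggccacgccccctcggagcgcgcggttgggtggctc

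All levels below are log2 of the scanner's processed signal minus the 75th percentile of that array, so 0 is the 75th percentile, and differences are between genotype means on that log2 scale. A probe was used where it stood well above background, by the scanner's own flag, on both arrays of at least 1 genotype, and the brightest such probe stood for the gene. Between 42.4% and 50.8% of spots were well above background on an array, no spot was saturated, and array pairs correlated at 0.971 to 0.984 across probes. The 6 arrays lay on 1 slide in 2 rows, with both Spink3+/+ arrays and Spink3-/- replicate 1 in row 1, and Spink3-/- replicate 2 and both Spink3-/-XKI/+ arrays in row 2. The Spink3 probe read 3.25 and 2.95 in Spink3-/- pancreas, 2.64 and 2.34 in Spink3-/-XKI/+ pancreas and 9.84 and 10.26 in Spink3+/+ pancreas (probe well above background on all 6 arrays). Its differences from Spink3+/+ were -6.95 in Spink3-/- and -7.56 in Spink3-/-XKI/+, with adjusted p of 0.00103 and 0.000613 (limma), as the genotypes are labelled.

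Most G2 and mitosis members read lowest on the Spink3-/-XKI/+ arrays, but none of the tested members passed the test in any comparison. Of the 47 members, 39 passed the filter and were tested, and 0 were called in any of the 3 comparisons by limma at an adjusted p under 0.05 over 14167 genes. The share of all tested genes called was 0.0353% in Spink3-/- against Spink3+/+ and 0.00706% in each of the other two comparisons. For 17 of the 22 tested G2 and mitosis members, both Spink3-/-XKI/+ arrays lay below all 4 other arrays, against 1 of 13 S-phase members, 0 of 4 G1 members and 6.04% of all tested genes. The other 5 of the 22 did not show this order, and the S-phase member that did was Rrm2. The difference between phases was not tested. Counting all 27 listed G2 and mitosis members, tested or not, 18 showed this order, and among the 21 well above background on all 6 arrays 16 did. The untested member among the 18 was Aurkb, which was not well above background on any array, so its order carries no weight. A gene that passes the filter through 1 genotype alone is bound to be bright there, and all but 1 of these 22 passed without that help.

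**Figure D1:**
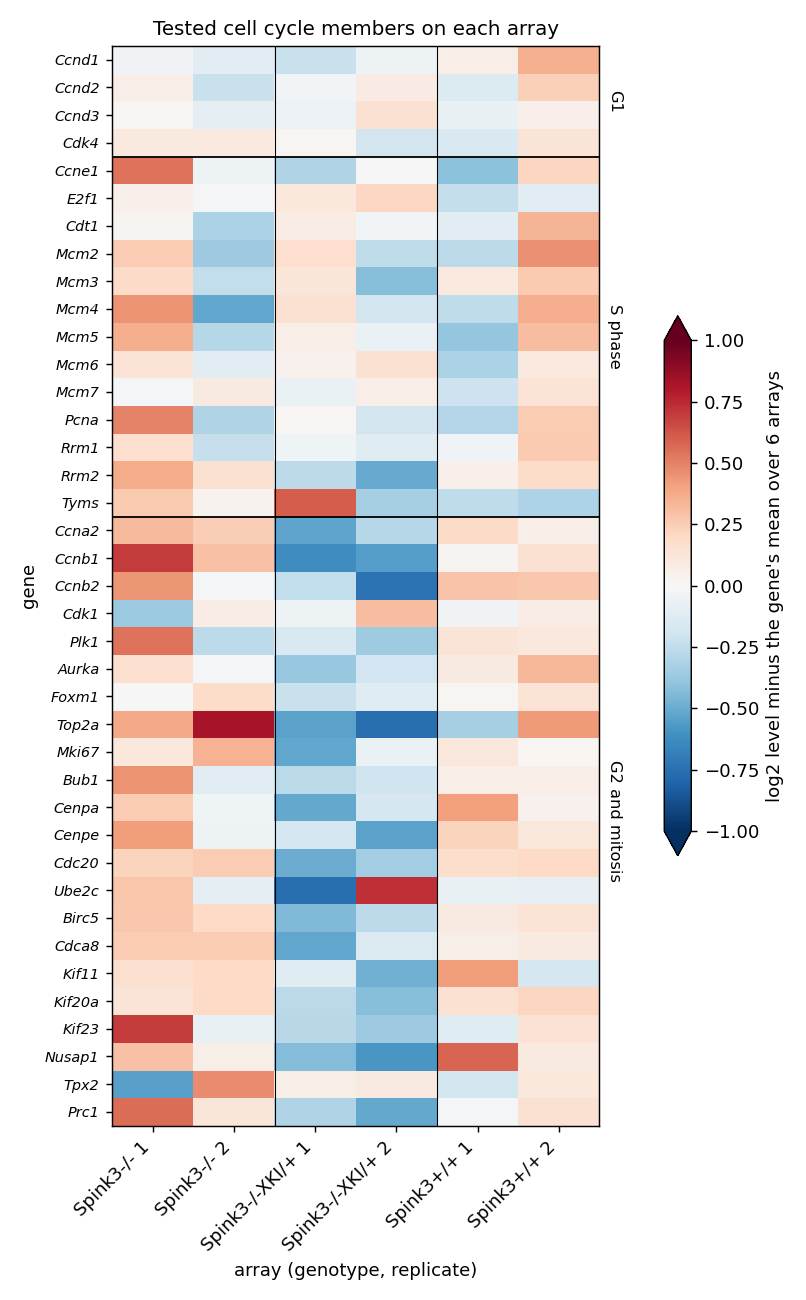
Each row is 1 of the 39 tested members and each column 1 array, with colour giving the log2 level minus the gene's own mean over the 6 arrays. In the lower block, G2 and mitosis, the 2 Spink3-/-XKI/+ columns are blue for most genes, while in the S-phase block the sign follows single arrays.

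Averaged over the 22 tested G2 and mitosis members, the level relative to each gene's own mean over the 6 arrays was 0.26 and 0.14 in Spink3-/- pancreas, -0.35 and -0.27 in Spink3-/-XKI/+ pancreas and 0.10 and 0.12 in Spink3+/+ pancreas. Both Spink3-/-XKI/+ arrays were low and the other 4 did not separate by genotype as far. Over the 13 S-phase members the same average was 0.25 and -0.17 in Spink3-/- pancreas, 0.05 and -0.13 in Spink3-/-XKI/+ pancreas and -0.20 and 0.19 in Spink3+/+ pancreas. Replicates of 1 genotype lay on both sides of 0 there, and the genotypes overlapped. Replicate 2 was below replicate 1 for 12 of 13 S-phase members in Spink3-/- and above it for 12 of 13 in Spink3+/+, with median gaps of -0.40 and 0.42, beside 0.05 and 0.04 over all tested genes. The share of spots well above background moved the same way, at 48.0% and 42.4% for Spink3-/- replicates 1 and 2 and at 43.4% and 46.4% for Spink3+/+ replicates 1 and 2, and its part in the S-phase values was not tested. Over the 4 G1 members the average was 0.04 and -0.08 in Spink3-/- pancreas, -0.07 and -0.00 in Spink3-/-XKI/+ pancreas and -0.08 and 0.19 in Spink3+/+ pancreas, again with overlap.

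**Figure D2:**
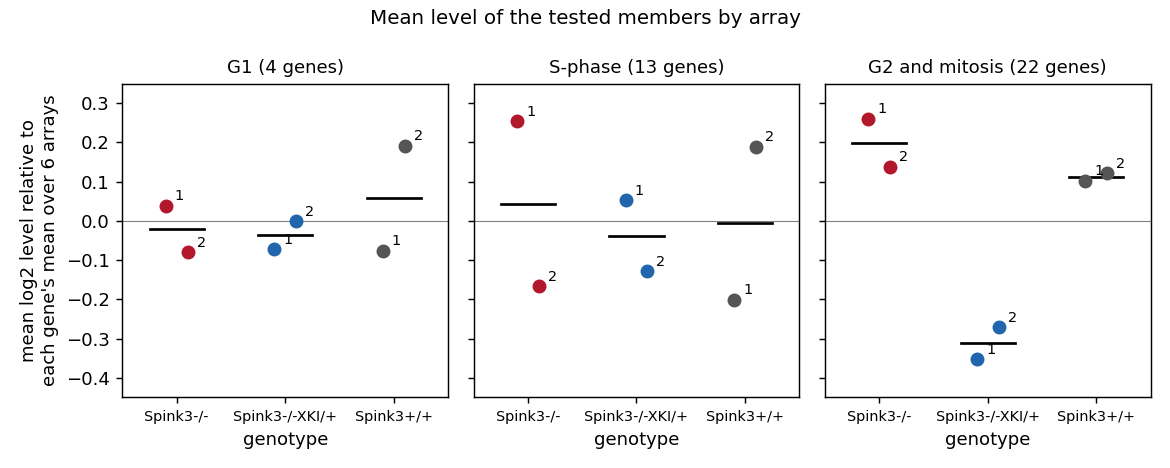
Points are arrays, numbered by replicate, and show the mean log2 level of the tested members relative to each gene's own mean over the 6 arrays, with a bar at the genotype mean (n = 2 arrays). In G2 and mitosis the Spink3-/-XKI/+ arrays sit at -0.35 and -0.27 and the other 4 between 0.10 and 0.26, whereas S-phase replicates of Spink3-/- lie at 0.25 and -0.17.

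The first comparison asks what accompanies acinar cell death when no acinar cell is spared, Spink3-/- against Spink3+/+. The median difference was 0.05 for G2 and mitosis, 0.07 for S phase and -0.07 for G1, beside -0.01 over all tested genes. The S-phase and G1 medians changed sign when an array was left out. The G2 and mitosis median kept its sign but not its size. The S-phase median became -0.25 without Spink3-/- replicate 1 and -0.21 without Spink3+/+ replicate 1, the G1 median became 0.05 without Spink3+/+ replicate 2 and -0.20 without its replicate 1, and the G2 and mitosis median became 0.18 without Spink3-/- replicate 2. Of the 22 tested G2 and mitosis members 16 had the higher mean in Spink3-/- and 6 the lower, against 49.1% and 50.9% of all genes. At an unadjusted p under 0.05 there were 0 members, against 2.73% of all genes higher and 2.33% lower, and the lowest adjusted p among members was 0.987 (limma). The groups did not overlap for 7 members with the higher values in Spink3-/- (Ccnb1, Ccna2, Cdc20, Birc5, Cdca8, E2f1 and Tyms) and for 1 with the lower (Ccnd1), against 16.2% and 16.6% of all genes.

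The second comparison sets the pancreas with part of its acinar cells normal against wild type. Of the 22 tested G2 and mitosis members, 19 had a lower mean in Spink3-/-XKI/+ than in Spink3+/+ and 3 a higher one, against 43.7% and 56.3% of all genes. Their median difference was -0.47, a 0.722-fold level, and at an unadjusted p under 0.05 there were 9 lower and 0 higher, against 2.54% and 5.03% of all genes. For 18 of the 22 the groups did not overlap with Spink3-/-XKI/+ the lower, against 16.1% of all genes, and for 0 with it the higher, against 26% of all genes. The lowest adjusted p among them was 0.478 (limma). The S-phase median was -0.06 and the G1 median -0.05, beside 0.04 over all genes, and neither held its sign. The S-phase median was 0.45 with the slide row as a block, -0.34 without Spink3+/+ replicate 1 and 0.22 without its replicate 2, and the G1 median was -0.21 and 0.10 without those replicates. Among S-phase members 2 did not overlap with Spink3-/-XKI/+ the lower (Rrm1 and Rrm2) and 1 with it the higher (E2f1).

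The third comparison sets the Spink3-deficient genotypes against each other, and it shares the Spink3-/-XKI/+ arrays with the second, so both carry the same low arrays. Of the 22, 20 had a higher mean in Spink3-/- than in Spink3-/-XKI/+ and 2 a lower one, against 42.7% and 57.3% of all genes. Their median difference was 0.53, a 1.44-fold level, and at an unadjusted p under 0.05 there were 10 higher and 0 lower, against 2.44% and 4.77% of all genes. For 18 the groups did not overlap with Spink3-/- the higher and for 0 with it the lower, against 13.1% and 21.4% of all genes. The lowest adjusted p was 0.325 (limma), for Ccnb1. The S-phase median was 0.03 and the G1 median -0.01, beside -0.04 over all genes, and with 1 array left out at a time they spanned -0.17 to 0.34 and -0.09 to 0.07.

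**Figure D3:**
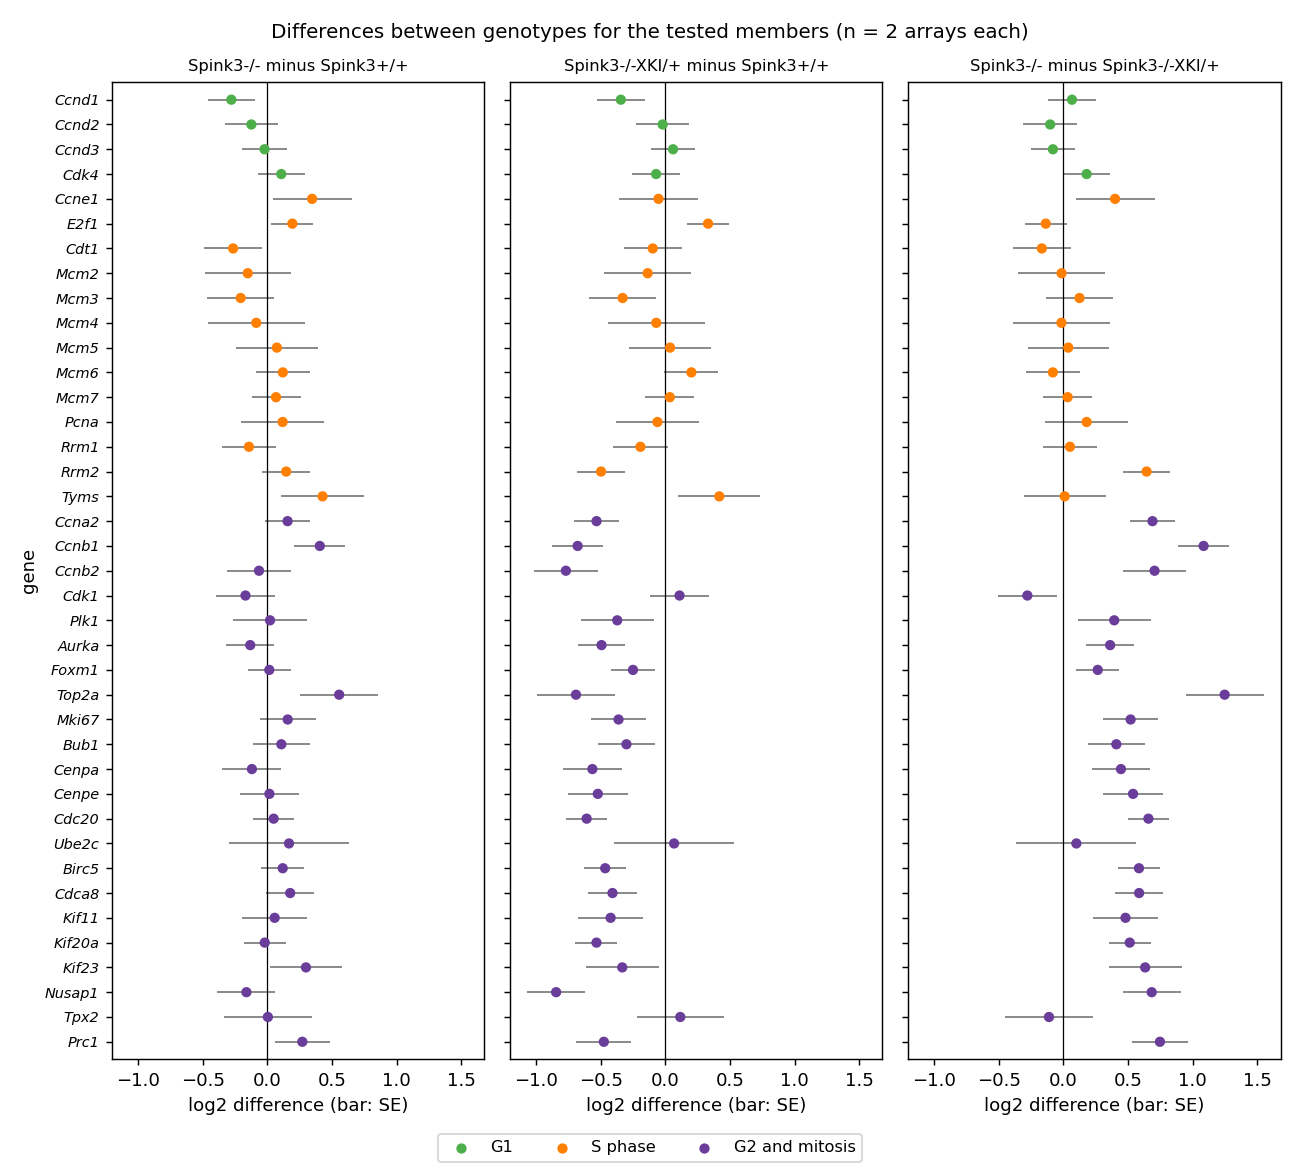
Log2 differences between genotype means (points) with the standard error of the limma fit (bars, n = 2 arrays each) for the 39 tested members, coloured by phase. Purple points lie left of 0 for 19 of 22 genes in the middle panel and right of 0 for 20 of 22 in the right panel, and around 0 in the left panel.

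Among the G1 genes, Ccnd1, the D-type cyclin most often induced by growth signals, read 2.88 and 2.80 in Spink3-/- pancreas, 2.69 and 2.86 in Spink3-/-XKI/+ pancreas and 2.97 and 3.26 in Spink3+/+ pancreas. Both Spink3-deficient genotypes lay below both wild-type arrays, with differences from Spink3+/+ of -0.28 ± 0.18 (SE) for Spink3-/- and -0.34 ± 0.18 (SE) for Spink3-/-XKI/+, and adjusted p of 0.987 and 0.734 (limma). Ccnd3, a D-type cyclin used widely in blood and lymphoid cells, read 5.31 and 5.20 in Spink3-/-, 5.23 and 5.44 in Spink3-/-XKI/+ and 5.22 and 5.34 in Spink3+/+ pancreas, so the 3 genotypes overlapped. Cdk4, the kinase partner of the D-type cyclins, read 4.54 and 4.54 in Spink3-/-, 4.46 and 4.26 in Spink3-/-XKI/+ and 4.29 and 4.57 in Spink3+/+ pancreas. It stood 0.18 ± 0.18 (SE) higher in Spink3-/- than in Spink3-/-XKI/+. Ccnd2 had differences of -0.12, -0.02 and -0.10 in the 3 comparisons.

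At the G1/S boundary, Ccne1, the cyclin that activates Cdk2, read 1.69 and 1.10 in Spink3-/-, 0.84 and 1.15 in Spink3-/-XKI/+ and 0.73 and 1.36 in Spink3+/+ pancreas, and every pair of genotypes overlapped. E2f1, an activator of S-phase genes, read 1.24 and 1.17 in Spink3-/-, 1.29 and 1.39 in Spink3-/-XKI/+ and 0.94 and 1.07 in Spink3+/+ pancreas. Its order was Spink3-/-XKI/+ over Spink3-/- over Spink3+/+ with no overlap, and its differences from wild type were 0.19 ± 0.16 and 0.33 ± 0.16 (SE) for Spink3-/- and Spink3-/-XKI/+, with adjusted p of 0.987 and 0.717 (limma).

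The licensing factors load or form the MCM helicase. Mcm2 read 0.09 and -0.53 in Spink3-/-, 0.01 and -0.42 in Spink3-/-XKI/+ and -0.43 and 0.29 in Spink3+/+ pancreas. The replicates of each genotype were farther apart than the genotype means, whose differences were -0.15, -0.14 and -0.01 in the 3 comparisons. Cdt1, which brings the helicase to origins, read 1.62 and 1.27 in Spink3-/-, 1.66 and 1.56 in Spink3-/-XKI/+ and 1.48 and 1.93 in Spink3+/+ pancreas, also with overlap. Mcm3 read 1.82 and 1.38 in Spink3-/-, 1.75 and 1.20 in Spink3-/-XKI/+ and 1.73 and 1.89 in Spink3+/+ pancreas. Mcm4, Mcm5, Mcm6 and Mcm7 overlapped between all genotypes, with differences between Spink3-/-XKI/+ and Spink3+/+ of -0.07, 0.04, 0.20 and 0.03. None of the 7 tested licensing genes had groups apart in any comparison.

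Of the genes for DNA synthesis and its nucleotides, Pcna, the sliding clamp of the replication fork, read 2.47 and 1.68 in Spink3-/-, 1.99 and 1.79 in Spink3-/-XKI/+ and 1.68 and 2.23 in Spink3+/+ pancreas. The 2 Spink3-/- arrays spanned the values of all the others. Rrm2, the cell-cycle-regulated small subunit of ribonucleotide reductase, read 1.98 and 1.77 in Spink3-/-, 1.35 and 1.11 in Spink3-/-XKI/+ and 1.66 and 1.79 in Spink3+/+ pancreas. It was the only S-phase member of the 13 tested with both Spink3-/-XKI/+ arrays below all others, -0.50 ± 0.18 (SE) from Spink3+/+ (adjusted p = 0.628, limma), while Rrm1, the large subunit, differed by -0.19. Tyms, which makes thymidylate, read -1.51 and -1.74 in Spink3-/-, -1.17 and -2.11 in Spink3-/-XKI/+ and -2.03 and -2.08 in Spink3+/+ pancreas and was well above background on 5 of the 6 arrays.

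In the group for G2 and mitotic entry, Ccnb1, the cyclin that activates Cdk1 at the start of mitosis, read 1.68 and 1.28 in Spink3-/-, 0.36 and 0.43 in Spink3-/-XKI/+ and 1.01 and 1.14 in Spink3+/+ pancreas (probe at mm9 chr13:101548722-101548781). By this probe the 3 genotypes lay in separate ranges. Spink3-/- stood 1.08 ± 0.20 (SE) over Spink3-/-XKI/+, a 2.12-fold level with an adjusted p of 0.325 (limma), and Spink3-/-XKI/+ stood at -0.68 ± 0.20 (SE) from Spink3+/+, a 0.625-fold level with an adjusted p of 0.525. Ccnb2, the Golgi-associated B cyclin, read 1.76 and 1.31 in Spink3-/-, 1.08 and 0.58 in Spink3-/-XKI/+ and 1.60 and 1.59 in Spink3+/+ pancreas, and Spink3-/-XKI/+ again lay apart below, at -0.77 ± 0.25 (SE) from Spink3+/+. Ccna2, the cyclin of S phase and G2, read 1.87 and 1.79 in Spink3-/-, 1.01 and 1.26 in Spink3-/-XKI/+ and 1.73 and 1.61 in Spink3+/+ pancreas.

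Among the kinases and the transcription factor of this group the gaps were smaller. Plk1, a kinase of spindle assembly and mitotic exit, read 1.15 and 0.35 in Spink3-/-, 0.46 and 0.26 in Spink3-/-XKI/+ and 0.74 and 0.72 in Spink3+/+ pancreas, so its Spink3-/- replicates reached into the Spink3-/-XKI/+ range. Aurka, the centrosomal Aurora kinase, stood at -0.49 ± 0.18 (SE) and Foxm1, the factor that induces G2 genes, at -0.25 ± 0.17 (SE) in Spink3-/-XKI/+ against Spink3+/+, both with groups apart. Cdk1 went with none of these by its representative probe, at -1.48 and -1.04 in Spink3-/-, -1.16 and -0.80 in Spink3-/-XKI/+ and -1.15 and -1.03 in Spink3+/+ pancreas. All 3 genotypes overlapped there.

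The most used proliferation marker, Mki67, which coats mitotic chromosomes, read 4.2 and 4.43 in Spink3-/-, 3.56 and 4.02 in Spink3-/-XKI/+ and 4.2 and 4.11 in Spink3+/+ pancreas (probe at mm9 chr7:142884764-142884823). Both Spink3-/-XKI/+ arrays lay below the others, replicate 2 by a small margin, with differences of -0.36 ± 0.22 (SE) from Spink3+/+ and 0.52 ± 0.22 (SE) between Spink3-/- and Spink3-/-XKI/+, and adjusted p of 0.754 and 0.692 (limma). Top2a, the topoisomerase that untangles sister chromatids, read -1.28 and -0.84 in Spink3-/-, -2.20 and -2.42 in Spink3-/-XKI/+ and -1.99 and -1.24 in Spink3+/+ pancreas (probe at mm9 chr11:98855522-98855581). It was well above background on 2 Spink3-/- arrays, 1 Spink3-/-XKI/+ array and 1 Spink3+/+ array. It passed the filter through Spink3-/- alone, where it was highest, so its difference of 1.25 ± 0.30 (SE) between Spink3-/- and Spink3-/-XKI/+ is given as a description only.

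At the kinetochore and the anaphase-promoting complex, Cdc20, the activator of that complex at anaphase, read 2.51 and 2.54 in Spink3-/-, 1.79 and 1.94 in Spink3-/-XKI/+ and 2.46 and 2.49 in Spink3+/+ pancreas (probe at mm9 chr4:118105534-118105593). Replicates lay close together, and Spink3-/-XKI/+ stood at -0.61 ± 0.16 (SE) from Spink3+/+ and Spink3-/- 0.66 ± 0.16 (SE) above Spink3-/-XKI/+, with adjusted p of 0.478 and 0.505 (limma). Cenpa, the centromeric histone, stood at -0.56 ± 0.23 (SE) and Cenpe, a kinetochore motor, at -0.52 ± 0.23 (SE) in Spink3-/-XKI/+ against Spink3+/+. Bub1, a spindle checkpoint kinase, read -1.35 and -1.91 in Spink3-/-, -2.08 and -2.0 in Spink3-/-XKI/+ and -1.74 and -1.74 in Spink3+/+ pancreas. All 3 genes had both Spink3-/-XKI/+ arrays below the other 4. Ube2c, the ubiquitin-conjugating enzyme of the complex, read 1.33 and 0.96 in Spink3-/-, 0.30 and 1.78 in Spink3-/-XKI/+ and 0.98 and 0.97 in Spink3+/+ pancreas, and its Spink3-/-XKI/+ arrays were the lowest and the highest of the 6.

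The chromosomal passenger complex carries Aurora B to centromeres and to the midzone. Birc5, its survivin subunit, read 3.57 and 3.50 in Spink3-/-, 2.86 and 3.04 in Spink3-/-XKI/+ and 3.39 and 3.44 in Spink3+/+ pancreas. Cdca8, its borealin subunit, read 2.70 and 2.70 in Spink3-/-, 1.93 and 2.30 in Spink3-/-XKI/+ and 2.51 and 2.54 in Spink3+/+ pancreas. By the probe that stands for each gene, the 3 genotypes lay in separate ranges in the order Spink3-/-, Spink3+/+, Spink3-/-XKI/+, and Spink3-/- stood 0.58 ± 0.16 and 0.59 ± 0.19 (SE) above Spink3-/-XKI/+ with adjusted p of 0.554 and 0.578 (limma).

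Among spindle and cytokinesis genes, Nusap1, which bundles spindle microtubules, read -0.15 and -0.38 in Spink3-/-, -0.88 and -1.02 in Spink3-/-XKI/+ and 0.14 and -0.35 in Spink3+/+ pancreas. Its difference of -0.84 ± 0.22 (SE) between Spink3-/-XKI/+ and Spink3+/+, a 0.557-fold level, was the largest of the 39 tested members in that comparison (adjusted p = 0.478, limma). Prc1, which cross-links the midzone, read 1.97 and 1.52 in Spink3-/-, 1.10 and 0.89 in Spink3-/-XKI/+ and 1.39 and 1.56 in Spink3+/+ pancreas, and Spink3-/- stood 0.75 ± 0.21 (SE) above Spink3-/-XKI/+. Kif20a and Kif23, kinesins of the midzone, stood at -0.53 ± 0.16 and -0.33 ± 0.28 (SE) in Spink3-/-XKI/+ against Spink3+/+. Kif23 read -0.45 and -1.22 in Spink3-/-, -1.42 and -1.51 in Spink3-/-XKI/+ and -1.27 and -1.0 in Spink3+/+ pancreas, and its high Spink3-/- value came from replicate 1. Kif11, the kinesin that separates spindle poles, overlapped between Spink3-/-XKI/+ and Spink3+/+. Tpx2, which activates Aurora A on spindle microtubules, read -0.64 and 0.37 in Spink3-/-, -0.03 and -0.01 in Spink3-/-XKI/+ and -0.28 and 0.01 in Spink3+/+ pancreas, with the widest replicate gap in Spink3-/-.

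Cdk1, Ube2c and Tpx2 were the 3 tested G2 and mitosis members whose representative probe was not lower in Spink3-/-XKI/+ than in Spink3+/+, and each has another probe well above background on all 6 arrays. The other Cdk1 probe read -0.62 and -1.31 in Spink3-/-, -1.74 and -1.17 in Spink3-/-XKI/+ and -1.12 and -0.75 in Spink3+/+ pancreas. The other Ube2c probe read 0.62 and 0.35 in Spink3-/-, -0.68 and -0.47 in Spink3-/-XKI/+ and 0.30 and 0.32 in Spink3+/+ pancreas. The other Tpx2 probe read -0.69 and -1.52 in Spink3-/-, -1.30 and -2.12 in Spink3-/-XKI/+ and -0.60 and -0.94 in Spink3+/+ pancreas. By these probes, looked at after the first values were seen, Spink3-/-XKI/+ lay below Spink3+/+ without overlap for all 3, by -0.52, -0.88 and -0.94. Which probe of each gene reports its main transcript was not tested, since no annotation of the mm9 build was used here.

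The 47 members have 66 probes in all, 49 of them well above background on all 6 arrays and 7 on none. Of the 10 members with several probes well above background on all arrays, 5 had the same sign of Spink3-/-XKI/+ minus Spink3+/+ in every such probe. The other Mki67 probe read 3.53 and 3.51 in Spink3-/-, 2.83 and 2.95 in Spink3-/-XKI/+ and 3.42 and 3.43 in Spink3+/+ pancreas, a wider gap than its representative probe gave. The other bright Ccnb1 probe read -0.21 and 0.08 in Spink3-/-, -0.85 and -0.50 in Spink3-/-XKI/+ and -0.07 and -0.21 in Spink3+/+ pancreas. It gave -0.53 between Spink3-/-XKI/+ and Spink3+/+ and 0.61 between Spink3-/- and Spink3-/-XKI/+, while Spink3-/- and Spink3+/+ overlapped there. The other Birc5 probes gave -0.11 and -0.08 with overlap, so the gap of its representative probe was not seen in them. The other Cdca8 probe read -1.87 and -1.70 in Spink3-/-, -2.61 and -1.96 in Spink3-/-XKI/+ and -2.19 and -2.09 in Spink3+/+ pancreas, so there Spink3-/-XKI/+ and Spink3+/+ overlapped, with a difference of -0.14. The other Ccnd3 probe gave -0.19 without overlap, the opposite sign to its representative probe. The other Mcm3 probe gave 0.20, likewise opposite in sign.

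**Figure D4:**
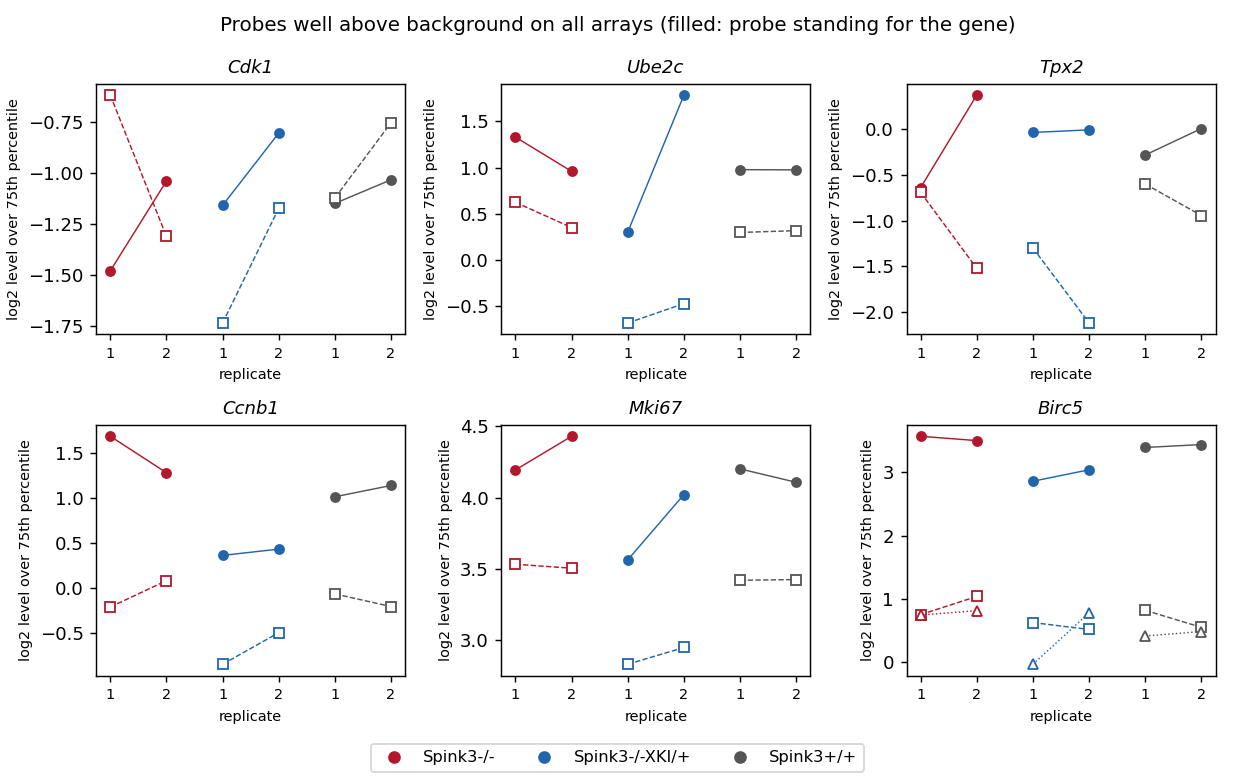
Each panel is 1 gene, with the scaled log2 level (vertical axis) by genotype and replicate for every probe well above background on all arrays, filled markers for the probe that stands for the gene and lines joining the 2 replicates of 1 probe. For Cdk1, Ube2c and Tpx2 the open probe is lower in Spink3-/-XKI/+ (blue) than in Spink3+/+ (grey) while the filled probe is not, and for Ccnb1 and Mki67 both probes are lower.

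Another 8 members were too dim to be tested. Aurkb and Ttk, mitotic kinases, were not well above background on any array. Cdk2, Cdc25c, Bub1b and Ect2 each were so on 2 arrays, 1 in each of 2 genotypes. Ccne2, a cyclin of the G1/S step, was so only on Spink3-/- replicate 1, at -1.51, and read -4.45 on Spink3-/- replicate 2, -5.33 and -4.93 in Spink3-/-XKI/+ and -4.55 and -4.97 in Spink3+/+ pancreas. Cdc6, the loader of the MCM helicase, was so on Spink3-/- replicate 1 by 1 probe and on Spink3-/-XKI/+ replicate 1 by the other. With Spink3-/- replicate 2 left out, Ccne2 and Cdc6 entered the fit through Spink3-/- replicate 1 alone, the single array where each tested probe was high, so their calls there carry no weight.

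The wider cell cycle pathway, 104 further genes in 5 lists of which 78 were tested, held 0 called genes in each comparison by limma. At an unadjusted p under 0.05 there were 2 higher and 3 lower in Spink3-/- than in Spink3+/+, against 2.73% and 2.33% of all tested genes, which is close to the overall share. In Spink3-/-XKI/+ against Spink3+/+ there were 1 higher and 11 lower, against 5.03% and 2.54% of all genes. In Spink3-/- against Spink3-/-XKI/+ there were 12 higher and 2 lower, against 2.44% and 4.77% of all genes. In the 2 mitotic lists, 28 of 31 tested genes had a lower mean in Spink3-/-XKI/+ than in Spink3+/+ and 3 a higher one, the median difference was -0.27, and the groups did not overlap for 20 with Spink3-/-XKI/+ the lower and for 0 with it the higher, against 16.1% and 26% of all genes. Both Spink3-/-XKI/+ arrays lay below the other 4 for 15 of the 31, against 17 of the 22 G2 and mitosis members and 6.04% of all tested genes. Against Spink3-/-XKI/+, 30 of the 31 had the higher mean in Spink3-/-, with a median of 0.32. In the list of origin and fork factors, 13 of 28 had a higher and 15 a lower mean in Spink3-/-XKI/+ than in Spink3+/+, with a median of -0.05. Of these, Cdc45, Gins2 and Rfc3, at 0.29, 0.24 and 0.29, passed the filter through Spink3-/-XKI/+ alone. Gmnn, at -0.28, passed it through Spink3+/+ alone. Such genes are bound to be bright in the genotype that let them pass, so this count is a description only. Between Spink3-/- and Spink3+/+ the mitotic lists had 17 genes higher and 14 lower, with a median of 0.02.

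Of the mitotic genes beyond the 47, Kif22, a chromosome-arm kinesin, read 2.27 and 2.32 in Spink3-/-, 1.48 and 1.67 in Spink3-/-XKI/+ and 2.21 and 2.18 in Spink3+/+ pancreas, close to the pattern of Cdc20. Melk, a mitotic kinase, read -0.34 and -0.59 in Spink3-/-, -1.38 and -1.24 in Spink3-/-XKI/+ and -0.90 and -1.0 in Spink3+/+ pancreas, with the 3 genotypes apart. Mad2l1, a spindle checkpoint protein, and Cdc25b, the phosphatase that activates Cdk1, stood at -0.92 ± 0.43 and -0.83 ± 0.25 (SE) in Spink3-/-XKI/+ against Spink3+/+. Tacc3, a spindle protein, and Anln, a ring protein of cytokinesis, stood 0.50 ± 0.16 and 0.73 ± 0.18 (SE) higher in Spink3-/- than in Spink3-/-XKI/+. Aspm, a spindle pole protein, overlapped in Spink3-/-XKI/+ and Spink3+/+ at a difference of 0.15 ± 0.32 (SE).

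Among the regulators, E2f7 and E2f8, which encode atypical E2F repressors, had both Spink3-/-XKI/+ arrays below the other 4. E2f7 read -0.43 and -0.48 in Spink3-/-, -1.18 and -0.91 in Spink3-/-XKI/+ and -0.33 and -0.14 in Spink3+/+ pancreas, and E2f8 read -0.28 and -0.42 in Spink3-/-, -1.03 and -1.16 in Spink3-/-XKI/+ and -0.81 and -0.73 in Spink3+/+ pancreas. E2f7 at -0.81 ± 0.18 (SE) had the lowest adjusted p of the tested pathway genes in Spink3-/-XKI/+ against Spink3+/+, 0.415 (limma). E2f4 and E2f6, which also encode repressors, had their highest means in Spink3-/-XKI/+, with all genotypes overlapping. E2f6 stood 0.22 ± 0.22 (SE) over Spink3+/+ there, and E2f4 passed the filter through Spink3-/-XKI/+ alone, at -1.83 there on average, against -2.01 in Spink3-/- and -2.07 in Spink3+/+ pancreas. E2f2, an activator, was low in both Spink3-deficient genotypes, at -0.64 ± 0.25 and -0.79 ± 0.25 (SE) from Spink3+/+ for Spink3-/- and Spink3-/-XKI/+. Tfdp2, a partner of the E2F proteins, stood at -0.65 ± 0.19 (SE) in Spink3-/- against Spink3+/+. Of the CDK inhibitors, Cdkn2b, an inhibitor of Cdk4, read -1.71 and -1.20 in Spink3-/-, -1.28 and -0.59 in Spink3-/-XKI/+ and -2.04 and -1.54 in Spink3+/+ pancreas. Cdkn1b was lowest in Spink3-/-, without overlap, at -0.34 ± 0.20 (SE) from Spink3+/+ and -0.28 ± 0.20 (SE) from Spink3-/-XKI/+. Cdkn2c stood at -0.64 ± 0.23 (SE) and Cdkn1b at -0.06 ± 0.20 (SE) in Spink3-/-XKI/+ against Spink3+/+. Among origin and fork factors, Orc2, an origin recognition subunit, stood at -0.75 ± 0.17 (SE) in that comparison, Mcm10 at -0.53 ± 0.36 (SE) and Prim2, a primase subunit, at -0.50 ± 0.33 (SE), and Dbf4, the partner of Cdc7, stood 0.64 ± 0.34 (SE) higher in Spink3-/- than in Spink3-/-XKI/+.

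Slide row and genotype were partly confounded, since all Spink3-/-XKI/+ arrays lay in row 2 and all Spink3+/+ arrays in row 1. Within row 2, Spink3-/- replicate 2 stood above both Spink3-/-XKI/+ arrays for 19 of the 22 G2 and mitosis members and below both for 0, against 32.2% and 36.2% of all tested genes, with a median of 0.49 over their mean beside -0.02 over all genes. Within row 1, Spink3-/- replicate 1 stood above both Spink3+/+ arrays for 12 of 22 and below both for 4, against 31.9% and 39.7% of all tested genes, with a median of 0.16 beside -0.03 over all genes. For the 13 S-phase members, the same medians were -0.17 in row 2 and 0.24 in row 1. Spink3-/-XKI/+ cannot be set against Spink3+/+ within a row, and with the row as a block that median was -0.36 for G2 and mitosis and 0.45 for S phase, against -0.47 and -0.06 without the block. The correction for the row rests on the gap between the 2 Spink3-/- arrays.

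Markers of other cell types also differed between arrays, and only the erythroid list had both Spink3-/-XKI/+ arrays lowest. Unlike the mitotic members, the erythroid and neutrophil lists were also lower in Spink3-/- than in Spink3+/+ pancreas. The 5 tested of 10 erythroid markers averaged 0.00 and -0.03 in Spink3-/- pancreas, -0.14 and -0.93 in Spink3-/-XKI/+ pancreas and 0.75 and 0.35 in Spink3+/+ pancreas relative to each gene's own mean, with Klf1 and Epb4.2 not well above background on any array. The 7 tested of 8 neutrophil markers averaged -0.42 and 0.05 in Spink3-/-, -0.21 and -0.56 in Spink3-/-XKI/+ and 0.23 and 0.90 in Spink3+/+ pancreas. Both lists were lowest on Spink3-/-XKI/+ replicate 2. In Spink3-/-XKI/+ against Spink3+/+ 1 tested marker of each list went the other way, Tfrc at 0.18 and Elane at 0.05. The 8 liver markers averaged 1.00 and 0.81 in Spink3-/-, -0.97 and 0.21 in Spink3-/-XKI/+ and -0.60 and -0.45 in Spink3+/+ pancreas, highest in Spink3-/-. The 8 macrophage markers averaged 0.20 and -0.12 in Spink3-/-, 0.54 and 0.09 in Spink3-/-XKI/+ and -0.49 and -0.22 in Spink3+/+ pancreas. The 11 tested of 12 acinar markers averaged -0.36 and -0.16 in Spink3-/-, 0.31 and 0.04 in Spink3-/-XKI/+ and 0.09 and 0.07 in Spink3+/+ pancreas, and all 11 were well above background on each of the 6 arrays. The endocrine, duct, endothelial, fibroblast and lymphocyte lists ranged from -0.31 to 0.33 over the arrays. In the fibroblast and endocrine lists both Spink3-/-XKI/+ arrays were the highest, in the endocrine list by a small margin for replicate 2. The largest fibroblast difference from Spink3+/+ was that of Acta2, at 1.66, with 5.10 and 6.77 in Spink3-/-XKI/+ and 4.12 and 4.42 in Spink3+/+ pancreas. The fibroblast average without Acta2 was not taken. Lum went the other way at -0.13, as did the endocrine markers Sst at -0.34, without overlap, and Isl1 at -0.03. The fibroblast list averaged 0.05 and -0.19 in Spink3-/-, 0.11 and 0.25 in Spink3-/-XKI/+ and -0.19 and -0.03 in Spink3+/+ pancreas. The endocrine list averaged -0.00 and -0.13 in Spink3-/-, 0.21 and 0.02 in Spink3-/-XKI/+ and -0.04 and -0.06 in Spink3+/+ pancreas. The part of any of these cell types in the mitotic values was not tested.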

How the data were processed

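RNA of 6 whole-pancreas samples was hybridised to single-colour Agilent arrays, 2 per genotype, and per the file headers the intensity of each spot was extracted with Agilent Feature Extraction 10.7.3.1, background-corrected, with no step between arrays. Positions in the headers are mm9. Besides the deposited intensity, the deposited other columns (the flags for well above background, saturation and outlier, and the gene names) were used, and the deposited series table equalled the scanner values spot by spot. Here log2 intensity minus the array's 75th percentile over non-control spots was taken, probes well above background on both arrays of a genotype were kept (24820 of 55681 probes), and the brightest unsaturated probe stood for a gene. Probes with their single spot flagged as an outlier on an array were left out. Of the probes, 26762 were named through an accession in RefSeq's table and 22417 stayed unnamed. Genotypes were compared in 1 limma 3.58.1 model (lmFit, contrasts.fit, eBayes, R 4.3.3, two-sided, 3 residual degrees of freedom) over 14167 genes with Benjamini-Hochberg adjustment and a threshold of 0.05. The fit was tried on simulated data with changes larger than any of the tested members showed. That trial does not cover changes of their size. Lists were described by counts and medians, with no test over a list. Alternatives were normexp, quantile and spike-in scaling, other probe filters, the mean of a gene's probes, a replicate block, a slide row block, only the 4 arrays compared, each array left out, and the second probe of 3 genes.

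Members and lists were chosen with earlier results of these data known. Named with each array's values were 8 fixed members (Mki67, Pcna, Top2a, Ccnb1, Ccnd1, Mcm2, Rrm2 and Cdk1), the members with the highest and lowest mean level, the member with the largest difference in each role and comparison, the 2 leading genes of each wider list and comparison as values, and further members for disagreeing probes or separate groups. The number of arrays limits the precision. Figures were drawn with matplotlib 3.10.9.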

Additional observations from a re-analysis of the deposited data

How the results depend on the processing

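With all arrays of the compared genotypes, 0 members were called under 10 alternatives, and the median of G2 and mitosis members kept its sign, at 0.041 to 0.1579 for Spink3-/- against Spink3+/+, -0.5197 to -0.3316 for Spink3-/-XKI/+ against Spink3+/+ and 0.3574 to 0.5853 for Spink3-/- against Spink3-/-XKI/+. The G2 and mitosis members whose groups did not overlap with Spink3-/-XKI/+ the lower numbered 16 to 21 beside Spink3+/+ and 12 to 19 beside Spink3-/-. These are counts among the members kept under each alternative, all 27 with no filter and 21 with a filter on all 6 arrays. The comparisons below are called null-to-wild, XKI-to-wild and null-to-XKI, in the order just given. Genes called over the whole array were 5, 1 and 1 in them, and the cause of the shifts below was not tested except where stated. Normexp background correction gave 1, 2 and 0 called genes, all-member medians of -0.1664 and 0.195 and G2 and mitosis medians of -0.3316 and 0.3574 in XKI-to-wild and null-to-XKI, and turned Cdk1 to -0.3272 and 0.3035 there. Quantile normalization gave 3 and 4 called genes in XKI-to-wild and null-to-XKI. Spike-in scaling gave G2 and mitosis medians of 0.1297 in null-to-wild and -0.3782 in XKI-to-wild, turned Pcna to 0.0311 in XKI-to-wild and called 3 genes in null-to-XKI. No filter, and likewise a filter on all 6 arrays, gave 1 called gene in null-to-wild and 0 in null-to-XKI. The mean of a gene's probes gave 2 called genes in null-to-wild and turned Cdk1 to -0.2036 in XKI-to-wild and 0.1057 in null-to-XKI, and the second probes, chosen after seeing the data, turned it to -0.5169 and 0.4899.

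The replicate block gave 1 called gene in null-to-wild and 0 in null-to-XKI and changed no call of a member. The labels do not say whether the replicate numbers pair the samples. Same-numbered deviations correlated at -0.055, 0.031 and 0.199, which cannot settle it with so few arrays a genotype. The slide row as a block, whose row correction rests on the 2 Spink3-/- arrays, gave 1, 0 and 3 called genes. It put the G2 and mitosis median at 0.1579 in null-to-wild. In XKI-to-wild it put the medians of all, S-phase and G2 and mitosis members at -0.0749, 0.4512 and -0.3641 and turned Pcna, Mcm2, Cdk1 and Mcm3 to 0.7325, 0.4866, -0.3312 and 0.1072. In null-to-XKI it put the all-member median at 0.1816 and turned Pcna to -0.217. With the 4 compared arrays alone, 11 genes were called in null-to-wild and 0 in null-to-XKI. Slide and scan could not be fitted as blocks, since there was 1 of each, and the series table gave the same values.

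Leaving out 1 array at a time leaves a lone array assumed to vary like the others. Called genes then ranged over 1 to 290, 1 to 306 and 0 to 295 in the 3 comparisons. For null-to-wild, 280 genes were called without Spink3-/- replicate 1, 286 without its replicate 2, 139 without Spink3+/+ replicate 1 and 290 without its replicate 2. For XKI-to-wild, 226 were called without Spink3-/-XKI/+ replicate 1, 171 without Spink3+/+ replicate 1 and 306 without its replicate 2. For null-to-XKI, 269 were called without Spink3-/- replicate 1, 295 without its replicate 2 and 172 without Spink3-/-XKI/+ replicate 1. Members called ranged over 0 to 2 in null-to-wild and null-to-XKI, with 2 without Spink3-/- replicate 2. Those are Ccne2 and Cdc6, which then pass the filter through the single array where they are high, so these calls carry no weight. In null-to-wild the medians spanned -0.0341 to 0.186 for all members, -0.1964 to 0.0519 for G1, -0.2501 to 0.2537 for S phase and 0.0512 to 0.1758 for G2 and mitosis. In XKI-to-wild they spanned -0.3785 to -0.1995, -0.2112 to 0.0953, -0.3367 to 0.2209 and -0.5382 to -0.4014. In null-to-XKI, all members spanned 0.1816 to 0.5234, S phase -0.1707 to 0.3435 and G2 and mitosis 0.4901 to 0.6411. Single genes changed sign as follows. In null-to-wild, Ube2c spanned -0.0176 to 0.3535 and Kif23 -0.0887 to 0.6873, turned without Spink3-/- replicate 1. In XKI-to-wild, Pcna spanned -0.3331 to 0.2108, Mcm2 -0.4945 to 0.2209 and Cdk1 -0.7986 to 0.1677. In null-to-XKI, Pcna spanned -0.217 to 0.5767, Mcm2 -0.3258 to 0.2976, Cdk1 -0.2786 to 0.8371, Cdt1 -0.3415 to 0.0081 and Ccnd1 -0.0208 to 0.1535.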
